A study of Mus musculus with 6 samples.

Results

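The chemokine transcripts of astrocytes were examined after the ablation of microglia. The set held 10 genes, *Ccl2*, *Ccl7*, *Ccl12*, *Cxcl1*, *Cxcl5*, *Cxcl10*, *Cxcl12*, *Cxcl14*, *Cxcl16* and *Cx3cl1*, and each was found by its symbol among the 24421 genes of the expression tables. The animals were adult male *Siglech* dtr/dtr mice on the C57BL/6 background, in which the diphtheria toxin (DT) receptor is placed in the *Siglech* gene, a gene used among brain cells almost exclusively by microglia. They received either PBS or DT at 50 µg/kg by intraperitoneal injection, and the hippocampus was taken 2 days later. Cells carrying CD11b were first removed on magnetic beads, astrocytes were then captured with beads against ACSA-2, and the RNA was sequenced with a strand-specific kit. Each group had 3 libraries from independent experiments, and each library was a pool of 2 mice. Both groups carried the knock-in on both alleles, which lowers *Siglech* itself, and wild-type mice given DT were not part of the sequenced samples.

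Chemokines are small secreted proteins that attract leukocytes by binding G protein-coupled receptors. *Ccl2*, *Ccl7* and *Ccl12* encode ligands of CCR2, a receptor of monocytes, and *Cxcl1* and *Cxcl5* encode ligands of CXCR2, a receptor of neutrophils that oligodendrocyte precursors also use. *Cxcl10* encodes an interferon-inducible ligand of CXCR3 on T cells, and *Cxcl16* and *Cx3cl1* encode membrane-anchored ligands of CXCR6 and CX3CR1. *Cxcl12*, the ligand of CXCR4 and ACKR3, and *Cxcl14* are made in the resting brain. Astrocytes are a known source of several of these ligands, and NF-kappa B and STAT signalling are among their inducers.

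The 6 libraries held 21704891 to 32933975 reads assigned to genes. Levels are given as CPM, the reads of a gene scaled to the size of its library, or, where genes are compared with each other, as TPM, which also corrects for transcript length. The gene that carries the receptor, *Siglech*, averaged 1.68 CPM in PBS and was without a read after DT. Against a floor of 3 reads in each DT library it was at least 14-fold lower. All 15 astrocyte markers were present, with a summed level of 32499 to 33975 TPM in PBS and 35325 to 37977 TPM in DT. Markers of other cells were present as well. The summed level of 20 microglial markers was 301 to 379 TPM in PBS and 194 to 221 TPM in DT. By the test described below, 8 of the 20 were called lower, against 0.159% of all genes tested. The summed level of 11 choroid plexus markers ranged from 170 to 2112 TPM in PBS and from 1377 to 3542 TPM in DT. All 11 had a log2 fold change above 0, as had 7366 of the 15137 genes tested. At an unadjusted limma p under 0.05, 9 of the 11 were higher, against 894 of all genes tested. In CPM the astrocyte marker *Aqp4* was at 1304, 743 and 660 in PBS and 943, 817 and 2871 in DT, in replicate order. The groups overlapped, and only DT replicate 3 lay above the PBS range. The log2 fold change of *Aqp4* was 0.60 (SE 0.45) and was not called (limma adjusted p = 0.694). This gene was named after its values were seen.

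DT treatment was accompanied by a higher level of several inflammatory chemokines and not of the abundant ones. *Ccl2*, *Ccl12*, *Cxcl1* and *Cxcl5* rose 4.72- to 7.21-fold in mean CPM, and limma called none of the 10 genes lower. A call required an adjusted p under 0.05 from limma on log2(CPM + 0.1), and 0.555% of the 15137 genes tested were called higher and 0.159% lower. Without adjustment, 7 members were higher and 1, *Cxcl12*, was lower at p under 0.05, against 894 higher and 682 lower of all 15137 genes tested. The edgeR exact test and DESeq2 each called *Cxcl12* lower. In 7 members the CPM of every DT library lay above that of every PBS library, an arrangement found in 8.75% of the genes tested, and in 1 member every DT library lay below, as in 7.57% of genes. The median log2 fold change was 2.23 over the members and -0.01 over all genes tested. All 10 members passed the filter of a mean of 0.5 CPM, but *Ccl2* and *Ccl7* passed it only through the DT libraries. The study itself had placed *Cxcl5*, *Ccl2*, *Ccl12*, *Cxcl1* and *Ccl7* among its higher genes and *Cxcl12* among its lower genes, so these counts are not independent evidence of direction. In bulk RNA, more cells of a type and more RNA per cell cannot be told apart. With 3 libraries against 3, a two-sided exact permutation test of a single gene cannot give a p below 0.1, which was its value for the TPM of 9 members. For *Cx3cl1* the exact permutation p was 0.5.

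**Figure D1:**
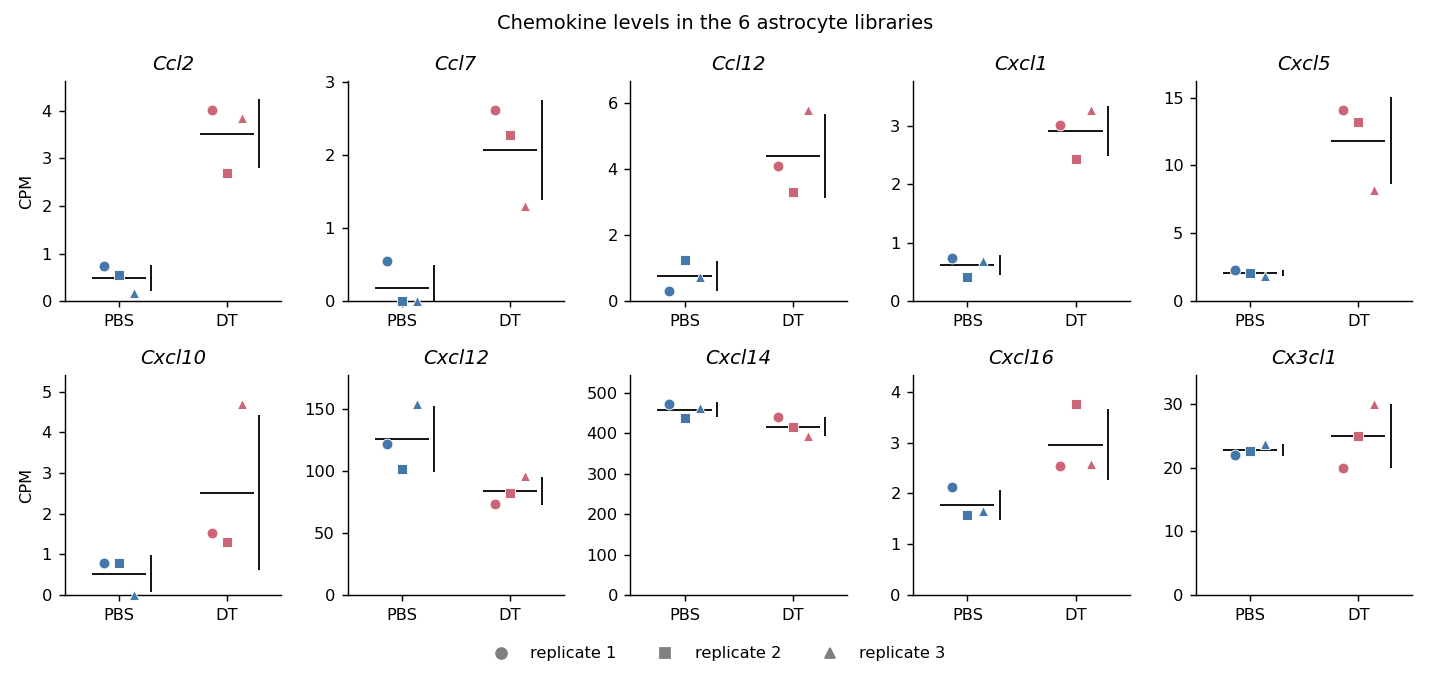
CPM of the 10 chemokines in each of the 6 libraries, with PBS in blue and DT in red, 1 symbol for each replicate number, the group mean as a horizontal line and 1 SD as a vertical line, cut at 0 where it would go below. *Ccl2*, *Ccl7*, *Ccl12*, *Cxcl1* and *Cxcl5* show separate groups with DT above, *Cxcl12* shows DT below PBS, and *Cxcl14* and *Cx3cl1* overlap.

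The CPM of *Ccl2*, which encodes the main monocyte attractant among the CCR2 ligands, was 0.737, 0.543 and 0.184 in PBS replicates 1 to 3 and 4.02, 2.70 and 3.84 in DT replicates 1 to 3. The lowest DT library was far above the highest PBS library, although the PBS values rested on only 4 to 18 reads. The log2 fold change was 2.74 (SE 0.43, 95% interval 1.76 to 3.71, limma adjusted p = 0.0314), and TPM went from 1.68 ± 1.04 to 12.8 ± 2.46 (SD, n = 3 each).

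*Ccl12* encodes a second CCR2 ligand, found in mice and not in humans. Its CPM was 0.322, 1.24 and 0.735 in PBS and 4.10, 3.31 and 5.80 in DT. The groups were apart, and DT replicate 3 was the highest library. *Ccl12* rose by 2.50 on the log2 scale (SE 0.43, 95% interval 1.52 to 3.48, limma adjusted p = 0.0466), with 4.10 ± 2.55 TPM in PBS and 24.1 ± 7.02 TPM in DT (SD, n = 3).

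*Ccl7* encodes a ligand shared by CCR2 and other CC receptors. It was read only in PBS replicate 1, at 0.552 CPM from 12 reads, and PBS replicates 2 and 3 had no read, which allows up to 0.0904 and 0.138 CPM. In DT its CPM was 2.62, 2.28 and 1.31, from 30 to 70 reads, so that all DT libraries were above PBS replicate 1. Its log2 fold change of 3.48 had a wide interval (SE 0.74, 1.79 to 5.17) and was not called (limma adjusted p = 0.111). It was called when PBS replicate 1 was left out, with a log2 fold change of 4.38 (limma adjusted p = 0.0121). A pseudocount of 1 lowered the log2 fold change to 1.38 for *Ccl7* and to 1.61 for *Ccl2*.

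The 3 CCR2 ligands together amounted to 6.40 ± 2.16 TPM in PBS and 44.5 ± 7.10 TPM in DT (SD, n = 3). The calls of *Ccl2* and *Ccl12* were close to the threshold. Without DT replicate 1, 2 or 3 the limma adjusted p of *Ccl2* was 0.138, 0.103 and 0.119, and that of *Ccl12* was 0.158, 0.133 and 0.166. *Ccl2* also missed the threshold without PBS replicate 2 (limma adjusted p = 0.0732), and *Ccl12* without PBS replicate 1 (0.0665) or 3 (0.118). With the replicate number as a block, *Ccl12* had an adjusted p of 0.0609 in limma. Macrophages can also make CCR2 ligands. Markers of border macrophages, the macrophages of vessels and membranes around the brain, were measured beside them. Of 12 such markers, none was at 0 in all libraries, 9 were tested, and all 9 had a log2 fold change above 0. Of the 9, 3 were called higher, against 0.555% of all genes tested. They were the scavenger receptor gene *Mrc1* (log2 fold change 1.49), *Lyve1* (3.21) and *F13a1* (1.38). The summed level of the 12 was 24.9 to 39.7 TPM in PBS and 73.7 to 94.5 TPM in DT. Of 11 monocyte or neutrophil markers in the tables, *Plac8*, *Chil3*, *S100a8* and *S100a9* had no read. The summed level was 39.7 to 45.1 TPM in PBS and 31.1 to 36.4 TPM in DT. It was mostly *Vcan*, so it is not a measure of monocytes or neutrophils. Cells carrying CD11b had been removed, so these values do not describe leukocytes in the tissue. The part of macrophages or monocytes in the CCR2 ligand levels was not tested.

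*Cxcl5*, which encodes a CXCR2 ligand, had the lowest adjusted p of the set. Its CPM was 2.30, 2.05 and 1.88 in PBS and 14.1, 13.2 and 8.16 in DT. The PBS libraries were nearly alike, and the lowest DT library, replicate 3, was still well above them. *Cxcl5* rose by 2.42 on the log2 scale (SE 0.23, 95% interval 1.89 to 2.94, limma adjusted p = 0.00245), and TPM went from 3.63 ± 0.316 to 21.1 ± 5.59 (SD, n = 3). *Cxcl5* was called in all 17 alternative fits, with a highest adjusted p of 0.0272.

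*Cxcl1* encodes the other CXCR2 ligand of the set. It had 0.737, 0.422 and 0.689 CPM in PBS and 3.01, 2.44 and 3.27 CPM in DT, from 14 to 16 and 69 to 75 reads. The DT libraries were close to each other and all above PBS. *Cxcl1* rose by 2.09 on the log2 scale (SE 0.30, 95% interval 1.40 to 2.78, limma adjusted p = 0.0223), and TPM was 1.81 ± 0.479 in PBS and 8.98 ± 1.26 in DT (SD, n = 3). *Cxcl1* was called in 11 of the 16 alternatives that tested it. The limma adjusted p was 0.107, 0.0961 and 0.103 without DT replicate 1, 2 or 3, and 0.0513 and 0.0511 without PBS replicate 2 or 3. The receptor gene *Cxcr2* had no read in any library.

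*Cxcl10*, the interferon-inducible CXCR3 ligand, was uneven. Its CPM was 0.783, 0.784 and 0 in PBS and 1.53, 1.3 and 4.71 in DT. All DT libraries were above PBS, but DT replicate 3, with 108 reads, was far above the other DT libraries, which had 35 and 40. The log2 fold change was 2.38 (SE 0.87, 95% interval 0.40 to 4.36) and did not pass (limma adjusted p = 0.394). It was 1.82 without DT replicate 3 and 1.33 without PBS replicate 3, the library with no read. DT replicate 3 also had the highest summed level of 21 interferon response genes, 598 TPM against 471 and 487 TPM in the other DT libraries. In PBS replicates 1 to 3 this sum was 386, 430 and 465 TPM. It was thus highest among PBS in replicate 3, the library without a *Cxcl10* read. DT replicate 3 was highest too in the summed level of 12 ependymal markers, at 1664 TPM against 1009 and 1041 TPM in the other DT libraries. The ependymal sum was 732, 951 and 915 TPM in PBS replicates 1 to 3. All 12 of these markers had a log2 fold change above 0. At an unadjusted limma p under 0.05, 8 of them were higher, against 894 of the 15137 genes tested. Their part in the *Cxcl10* level was not tested.

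*Cxcl12* encodes a homeostatic chemokine of vessels and glia. Its CPM was 121, 101 and 154 in PBS and 73.5, 82.4 and 95.7 in DT, so that every DT library was below every PBS library. The log2 fold change was -0.57 (SE 0.15, 95% interval -0.92 to -0.22) and did not pass in limma (adjusted p = 0.217), and TPM was 75.8 ± 15.0 in PBS and 52.2 ± 6.79 in DT (SD, n = 3). Tests on the read counts differed, with an adjusted p of 0.0320 in the edgeR exact test, 0.00973 in DESeq2 and 0.217 in the edgeR quasi-likelihood test. The tests that called it lower called more genes, 1.22% higher and 0.482% lower for the edgeR exact test and 1.5% higher and 0.647% lower for DESeq2. Endothelial cells also make *Cxcl12*. All 13 endothelial markers had a log2 fold change below 0, with a median of -0.39. At an unadjusted limma p under 0.05, 6 of them were lower, against 682 of the 15137 genes tested. The lowest limma adjusted p was 0.183, for *Cldn5*. The summed level of the 13 was 1000 to 1622 TPM in PBS and 852 to 1045 TPM in DT. PBS replicate 3 was highest both in this sum and in *Cxcl12*. PBS replicates 1 and 2 were in opposite order, with 1000 and 1137 TPM in this sum and 74.0 and 61.8 TPM of *Cxcl12*. DT replicates 1 to 3 were in the same order, with 852, 889 and 1045 TPM in this sum and 45.7, 51.6 and 59.3 TPM of *Cxcl12*. The part of endothelial RNA was not tested.

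*Cxcl14* was by far the most abundant member. Its CPM was 473, 437 and 462 in PBS and 441, 416 and 393 in DT. The groups overlapped in CPM, since DT replicate 1 was above PBS replicate 2, and were apart in TPM, at 733 ± 17.7 in PBS and 673 ± 31.0 in DT (SD, n = 3). The log2 fold change was -0.14 (SE 0.06, 95% interval -0.28 to 0.01, limma adjusted p = 0.510), an interval that leaves no room for a change as large as those of the CCR2 and CXCR2 ligands.

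*Cxcl16*, which encodes a membrane-anchored chemokine and scavenger receptor, had 2.12, 1.57 and 1.65 CPM in PBS and 2.53, 3.77 and 2.57 CPM in DT. Every DT library was above every PBS library, and DT replicate 2 was highest. Its log2 fold change of 0.69 (SE 0.25, 95% interval 0.11 to 1.27) did not pass (limma adjusted p = 0.397).

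*Cx3cl1* encodes fractalkine, the ligand of the microglial receptor CX3CR1. Its CPM was 22.0, 22.6 and 23.7 in PBS and 20.0, 25 and 30.1 in DT. The PBS libraries were nearly equal and lay inside the range of the DT libraries. The log2 fold change was 0.12 (SE 0.14, 95% interval -0.21 to 0.44, limma adjusted p = 0.827), and it turned to -0.03 without DT replicate 3.

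**Figure D2:**
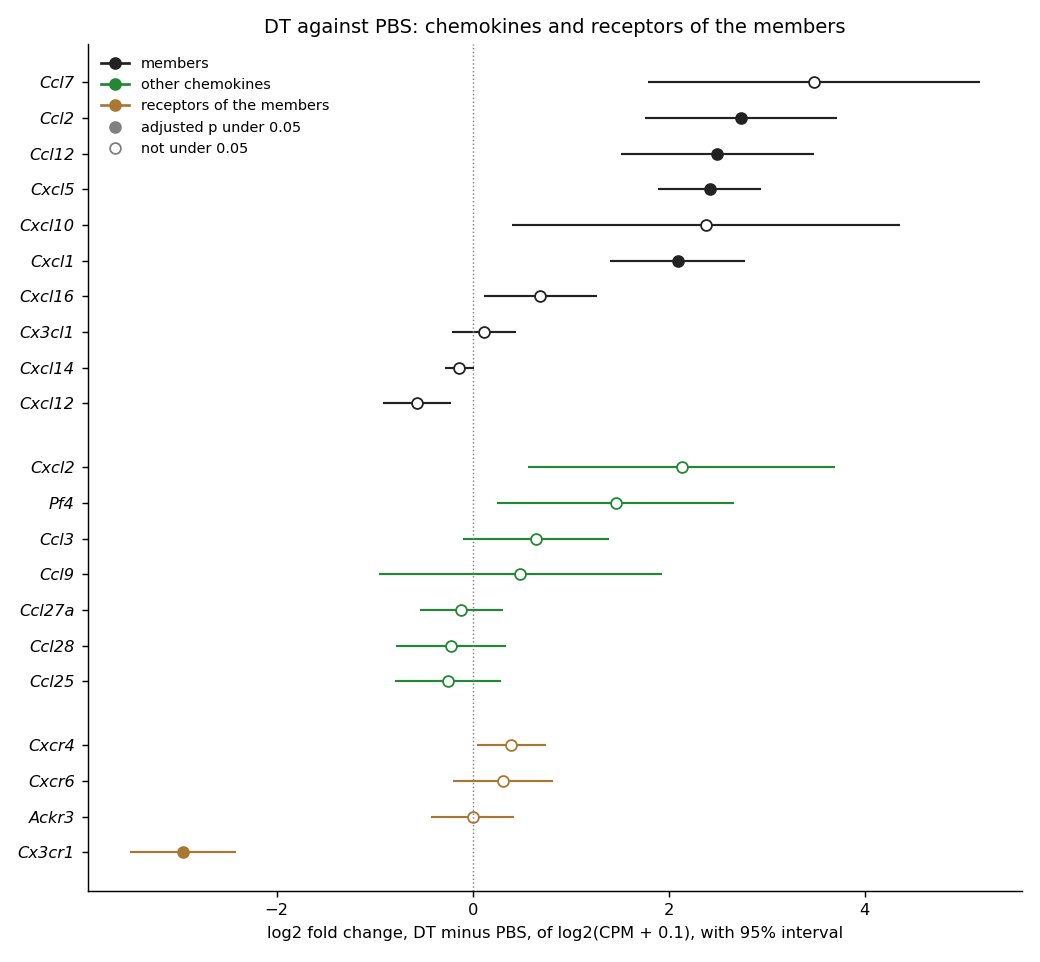
Log2 fold change (DT minus PBS, on log2(CPM + 0.1)) with its 95% interval for the 10 members in black, the 7 other chemokines tested in green and the 4 tested receptors of the members (*Cxcr4*, *Ackr3*, *Cxcr6* and *Cx3cr1*) in brown, with filled circles for a limma adjusted p under 0.05. *Ccl2*, *Ccl12*, *Cxcl5* and *Cxcl1* are filled on the right, and *Cx3cr1* is the only filled point on the left.

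The order of the members by TPM was compared between the groups. In PBS it ran *Cxcl14*, *Cxcl12*, *Cx3cl1*, *Ccl12*, *Cxcl5*, *Cxcl16*, *Cxcl1*, *Ccl2*, *Cxcl10* and *Ccl7*. The ranges of neighbours overlapped between *Ccl12* and *Cxcl5* and from *Cxcl16* down to *Ccl7*, so the order there was not set beyond the spread. In DT it ran *Cxcl14*, *Cxcl12*, *Ccl12*, *Cx3cl1*, *Cxcl5*, *Ccl2*, *Cxcl1*, *Ccl7*, *Cxcl10* and *Cxcl16*. Neighbours overlapped from *Ccl12* to *Cxcl5* and from *Ccl2* to *Cxcl16*. The mean of *Ccl12* thus moved from 4.10 TPM, below *Cx3cl1* at 21.2 TPM, to 24.1 TPM, beside *Cx3cl1* at 23.5 TPM.

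Summed over the 10 members, the level was 846 ± 28.2 TPM in PBS and 834 ± 15.2 TPM in DT (SD, n = 3), and the groups overlapped. *Cxcl14* alone made up 81.3% of the summed TPM of 38 chemokine genes in PBS and 75.1% in DT. The 4 called members, picked here by their calls, made up 1.25% in PBS and 7.46% in DT, as their sum went from 11.2 ± 2.1 to 66.9 ± 6.02 TPM. The DT libraries did not order the members alike. Replicate 3 was highest for *Ccl12*, *Cxcl1*, *Cxcl10*, *Cxcl12* and *Cx3cl1*, and replicate 1 for *Ccl2*, *Ccl7*, *Cxcl5* and *Cxcl14*.

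The 4 called members lie in 2 chromosomal clusters. In the mouse genome build mm10, *Ccl2* (chr11:82035571-82037453, plus strand), *Ccl7* (chr11:82045712-82047525, plus strand) and *Ccl12* (chr11:82101845-82103400, plus strand) are neighbours, with start sites 10.1 kb and 66.3 kb from that of *Ccl2*. Not every gene of the cluster was read. *Ccl11*, at 22.3 kb and between *Ccl7* and *Ccl12*, had 15 reads in all 6 libraries together, and *Ccl8* and *Ccl1*, further on, had none.

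*Cxcl5* (chr5:90759360-90761624, plus strand) and *Cxcl1* (chr5:90891241-90893115, plus strand) belong to a second cluster, with start sites 132 kb apart. *Cxcl2*, another CXCR2 ligand that starts 145 kb from *Cxcl5*, had 0, 10 and 7 reads in PBS and 33, 46 and 11 reads in DT. In CPM all DT libraries of *Cxcl2* were above PBS, but its log2 fold change of 2.13 (SE 0.69) did not pass in limma (adjusted p = 0.341). With a mean of 0.208 CPM in PBS, it passed the filter of 0.5 CPM only through the DT libraries. *Pf4*, the platelet and macrophage chemokine at 13.1 kb, had a log2 fold change of 1.46 (SE 0.53, limma adjusted p = 0.393) and is itself 1 of the border macrophage markers. *Cxcl3* and *Cxcl15*, which lie between *Cxcl5* and *Cxcl1*, had no read, and *Ppbp* had 2.

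The other members lie apart. *Cxcl10* (chr5:92346638-92348889, minus strand) stands beside *Cxcl9*, which had no read, and *Cxcl11*, which had 17 reads in PBS and 21 in DT. *Cxcl12* is at chr6:117168535-117181367 (plus strand), *Cxcl14* at chr13:56288643-56296551 (minus strand), *Cxcl16* at chr11:70453983-70459984 (minus strand) and *Cx3cl1* at chr8:94772009-94782427 (plus strand). The longest run of bases that a member's transcript shared exactly with another chemokine transcript was 23, between *Ccl2* and *Ccl7* and between *Cxcl1* and *Cxcl3*. *Ccl2*, *Cxcl10* and *Cxcl16* each overlap a gene on the opposite strand, *Gm17268*, *Art3* and *Zmynd15*. The libraries kept strand information, and how the counting treated it was not checked.

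**Figure D3:**
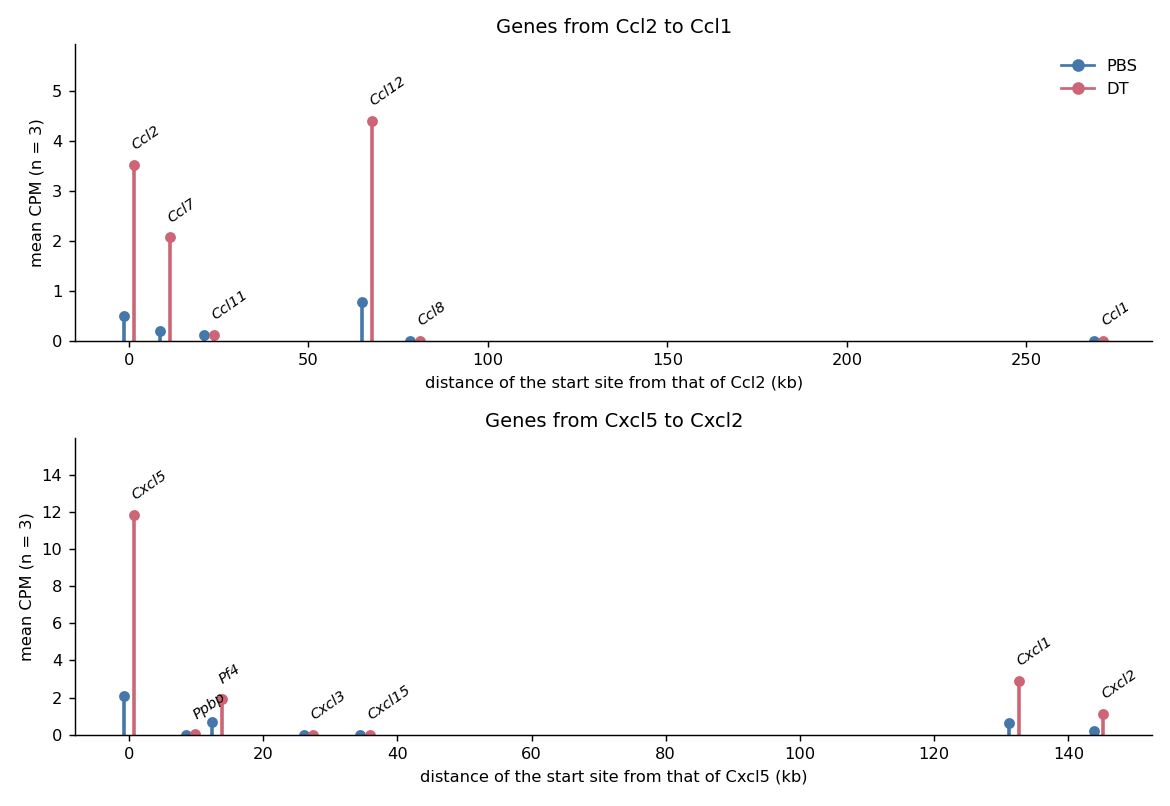
Mean CPM (n = 3) of each chemokine gene of the *Ccl2* cluster (top) and the *Cxcl5* to *Cxcl2* cluster (bottom) against the distance of its start site in kb from that of the first gene, with PBS in blue and DT in red set side by side. *Ccl2*, *Ccl7*, *Ccl12*, *Cxcl5* and *Cxcl1* have a higher mean in DT, and *Ccl8*, *Ccl1*, *Cxcl3* and *Cxcl15* are at 0 in both groups.

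Because the called members lie in separate clusters, the 250 bases before the start site were read from RefSeq (build GRCm38.p6, equal to mm10 on these chromosomes) for the 6 members with an entry. *Cxcl1* is shown as a called member with an NF-kappa B consensus, *Cxcl10* as an interferon-inducible gene, *Ccl12* as a called member in which none was found, and *Cxcl14* as the abundant member that was not called. Capitals mark matches to the NF-kappa B consensus or to a core of interferon response elements, GAAA followed by any 2 bases and GAAA again. Each window is written 5′ to 3′ in the direction of its gene and ends at the last base before the start site.
Cxcl1: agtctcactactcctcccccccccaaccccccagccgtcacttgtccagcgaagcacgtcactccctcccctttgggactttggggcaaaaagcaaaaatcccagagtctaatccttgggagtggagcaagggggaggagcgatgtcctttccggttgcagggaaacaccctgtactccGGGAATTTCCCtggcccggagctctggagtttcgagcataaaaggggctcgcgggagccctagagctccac
Cxcl10: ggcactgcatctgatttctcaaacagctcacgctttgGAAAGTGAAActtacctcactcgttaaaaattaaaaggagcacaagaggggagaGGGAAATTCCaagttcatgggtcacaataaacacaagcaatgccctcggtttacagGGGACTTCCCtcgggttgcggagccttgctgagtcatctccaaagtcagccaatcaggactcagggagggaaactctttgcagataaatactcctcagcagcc
Ccl12: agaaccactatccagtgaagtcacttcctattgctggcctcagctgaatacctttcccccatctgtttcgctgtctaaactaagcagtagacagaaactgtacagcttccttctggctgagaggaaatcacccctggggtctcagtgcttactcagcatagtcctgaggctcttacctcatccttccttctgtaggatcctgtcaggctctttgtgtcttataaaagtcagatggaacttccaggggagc
Cxcl14: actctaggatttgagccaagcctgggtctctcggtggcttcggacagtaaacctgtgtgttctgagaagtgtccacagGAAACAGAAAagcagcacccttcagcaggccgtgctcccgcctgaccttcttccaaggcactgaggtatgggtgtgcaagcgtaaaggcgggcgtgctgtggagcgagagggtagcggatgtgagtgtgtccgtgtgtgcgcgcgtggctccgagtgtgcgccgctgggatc

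These windows are chr5:90890995-90891244 (plus) for *Cxcl1*, chr5:92348890-92349139 (minus) for *Cxcl10*, chr11:82101595-82101844 (plus) for *Ccl12* and chr13:56296552-56296801 (minus) for *Cxcl14*. The RefSeq start of *Cxcl1* lies 4 bases into the gene as given above. Matches were searched on both strands. *Cxcl1* had overlapping matches to the NF-kappa B consensus on the 2 strands, 71 to 61 bases before the start. *Cxcl10* had 2, at 159 to 150 and at 103 to 94 bases, with a match to the interferon response core at 213 to 204 bases and a match to the AP-1 motif TGANTCA at 74 to 68 bases, left in lower case. *Cxcl14* matched the interferon response core at 172 to 163 bases. *Ccl12* held only the TATA box letters TATAAA, at 31 to 26 bases. *Cx3cl1* held only TATAAA, and *Cxcl12* held none of the 4. The RefSeq start of *Cx3cl1* lies 171 bases into the gene as given above. Most of its window is thus inside the gene and does not describe the bases before that start. Among 32851 windows of this length, 3.90% held the NF-kappa B consensus, 2.98% the interferon response core, 6.75% TGANTCA and 12.4% TATAAA. A match is a description of the letters and not a measured binding site. *Ccl2*, *Ccl7*, *Cxcl5* and *Cxcl16* were not analysed here.

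Of 28 other chemokine genes, 10 had no read in any library and 7 had enough reads to be tested. limma called none of the 7 in either direction, with 2 higher and none lower at an unadjusted p under 0.05, namely *Cxcl2* and *Pf4*. The edgeR exact test called *Cxcl2* higher, and DESeq2 and the edgeR quasi-likelihood test called none. The median log2 fold change of the 7 was 0.49. The most abundant were *Ccl27a*, at 34.8 ± 5.70 TPM in PBS and 31.1 ± 2.65 TPM in DT, *Pf4*, at 3.45 ± 2.16 and 9.59 ± 3.93 TPM, and *Ccl25*, at 6.87 ± 0.433 and 5.86 ± 1.27 TPM (SD, n = 3). *Ccl27a* has near-identical copies in the mouse genome and its level is uncertain. The other chemokines summed to 56.4 ± 7.52 TPM in PBS and 62.9 ± 10.5 TPM in DT.

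Of 23 chemokine receptor genes, 11 were tested, and *Cx3cr1* was the 1 called in limma. It was lower in DT, as were 0.159% of all genes tested. The CPM of *Cx3cr1* was 13.1, 22.4 and 18.9 in PBS and 1.79, 2.76 and 2.14 in DT. All DT libraries were far below PBS, with a log2 fold change of -2.96 (SE 0.24, 95% interval -3.49 to -2.42, limma adjusted p = 0.000899). *Cx3cr1* is 1 of the 20 microglial markers. The transcript of its ligand *Cx3cl1* overlapped between the groups.

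The list holds both receptors of *Cxcl12*. *Cxcr4* had 16.9 ± 1.06 TPM in PBS and 22.7 ± 4.72 TPM in DT (SD, n = 3), with a log2 fold change of 0.39 (SE 0.15) that did not pass (limma adjusted p = 0.429), and it was the only receptor higher at an unadjusted p under 0.05. *Ackr3*, which encodes an atypical receptor that takes up *Cxcl12*, had 15.2 ± 2.30 and 15.5 ± 3.75 TPM, and its log2 fold change was within 0.01 of 0 and changed sign between fits.

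The leukocyte receptors for these ligands were hardly read. Cells carrying CD11b had been removed before the capture, so this does not describe leukocytes in the tissue. *Ccr2* had 0 to 16 reads in the PBS libraries and 0 to 5 reads in the DT libraries. *Cxcr2* and *Cxcr3* had no read, as had *Cxcr1*, *Ccr3*, *Ccr4* and *Ccr8*. The floor of 3 reads set for such genes is 0.0904 to 0.138 CPM per library. *Cxcr6*, the receptor of *Cxcl16*, was at 3.84 ± 0.657 TPM in PBS and 4.79 ± 0.648 TPM in DT (SD, n = 3). Intervals and limits of this kind cover counting error only.

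Chemokines are shed, cut or inactivated by proteases. Of 11 genes of this processing list, 10 were tested, *Timp1* was called higher and *Ctss* lower, against 0.555% and 0.159% of all genes tested. *Timp1*, which encodes a secreted inhibitor of metalloproteinases, had no read in PBS and 3.54, 2.89 and 2.97 CPM in DT. Against 3 reads in each PBS library it was at least 25.6-fold higher (limma adjusted p = 0.00072). It passed the filter of a mean of 0.5 CPM only through the DT libraries, as *Ccl2* and *Ccl7* did. *Ctss*, which encodes the lysosomal protease cathepsin S and is abundant in microglia and macrophages, had 27.3, 36.5 and 37.8 CPM in PBS and 8.16, 8.09 and 6.50 CPM in DT, a log2 fold change of -2.14 (SE 0.15, limma adjusted p = 0.000612). The microglial marker sum given above was lower in DT too, and its part in the *Ctss* level was not tested. The most abundant of the list were *Timp3*, at 439 ± 15.1 and 426 ± 7.41 TPM, *Mmp14*, at 205 ± 7.15 and 190 ± 18.8 TPM, and *Rhbdf1*, at 47.5 ± 3.17 and 59.8 ± 4.58 TPM (SD, n = 3), and none of these was called.

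Of 38 genes of receptors, adaptors and transcription factors that induce chemokines, all were tested. Of these, 5 were called higher, against 0.555% of all genes tested. They were the TNF receptor gene *Tnfrsf1a* (log2 fold change 1.04, SE 0.12, limma adjusted p = 0.00612), the IL-1 receptor gene *Il1r1* (1.24, 0.13, 0.00521), the oncostatin M receptor gene *Osmr* (1.62, 0.10, 0.000249), *Stat3* (0.98, 0.11, 0.00538) and *Cebpd* (1.64, 0.20, 0.00922). The groups of each were apart, and *Cebpd* alone missed the threshold when a library was left out, DT replicate 2 (limma adjusted p = 0.057). *Osmr* had 50.6, 59.1 and 63.9 CPM in PBS and 192, 178 and 161 CPM in DT. *Stat3*, the transcription factor downstream of OSMR and gp130, had 145, 149 and 118 CPM in PBS and 243, 303 and 266 CPM in DT. *Il1r1* had 13.5, 9.77 and 10.7 CPM in PBS and 27.5, 27.4 and 24.9 CPM in DT. The other 33 genes were not called, and the median log2 fold change of the list was 0.10. At an unadjusted limma p under 0.05, 14 of the 38 were higher and 2 lower. Over all 15137 genes tested these numbers were 894 and 682. None of the list was called lower by limma, edgeR or DESeq2. The most abundant genes of the list were the AP-1 subunits *Jun*, at 315 ± 66.1 and 294 ± 4.80 TPM, and *Fos*, at 185 ± 47.7 and 192 ± 1.28 TPM, and the cytokine receptor subunit *Il6st*, at 135 ± 9.24 and 142 ± 6.59 TPM (SD, n = 3), and their log2 fold changes of -0.09, 0.07 and 0.06 did not pass.

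Of 21 interferon response genes, 20 were tested and 1 was called higher, against 0.555% of all genes tested. *Irgm1*, an interferon-inducible GTPase gene, had 22.0, 18.0 and 23.4 CPM in PBS and 37.5, 41.5 and 34.8 CPM in DT, all above PBS, with a log2 fold change of 0.85 (SE 0.12, limma adjusted p = 0.0194). The limma adjusted p was 0.0517 without PBS replicate 1, 0.0798 without DT replicate 1 and 0.102 without DT replicate 2. None was called lower by limma, edgeR or DESeq2 or at an unadjusted p under 0.05, and the median log2 fold change was 0.14. The most abundant were *Ifi27*, at 114 ± 14.7 and 118 ± 1.87 TPM, *Ifit3*, at 59.0 ± 2.51 and 72.2 ± 23.3 TPM, and *Gbp3*, at 39.0 ± 11.4 and 48.0 ± 7.83 TPM (SD, n = 3), with overlapping groups.

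**Figure D4:**
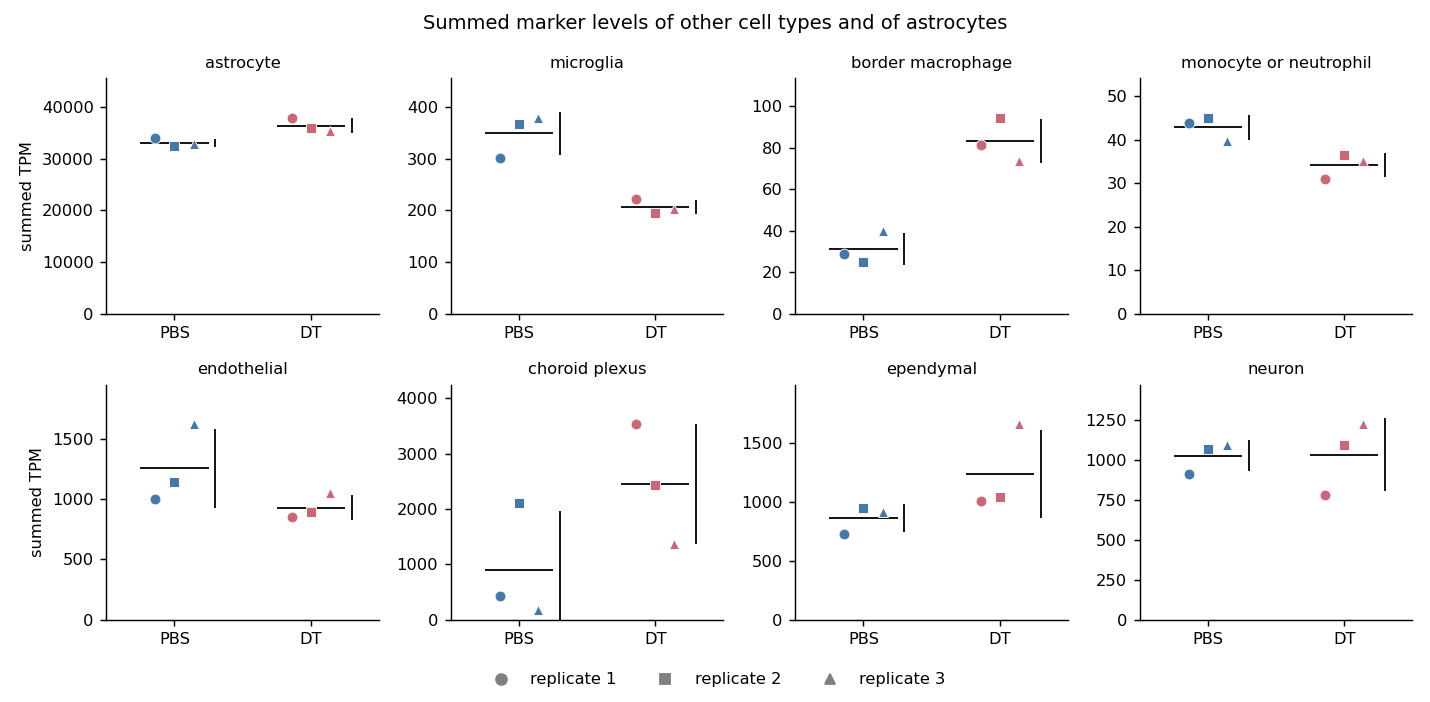
Summed TPM of the marker genes of astrocytes and of 7 other cell types in each library, with PBS in blue, DT in red, the mean as a horizontal line and 1 SD as a vertical line, cut at 0 where it would go below. The microglial sum is lower and the border macrophage sum higher in every DT library than in PBS, and the choroid plexus sum varies from 170 to 3542 TPM between libraries. The monocyte or neutrophil sum is mostly *Vcan* and is not a measure of those cells.

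The members were compared across all fits. *Cxcl5* was called in 17 of 17 alternatives, *Ccl2* in 11 of 17, *Cxcl1* in 11 of 16, *Ccl12* in 6 of 17, *Cxcl12* in 2 of 17 and *Ccl7* in 1 of 16, while *Cxcl10*, *Cxcl14*, *Cxcl16* and *Cx3cl1* were called in none. The direction was kept in every alternative for all members but *Cx3cl1*. Sizes moved most in the genes with few reads, and the log2 fold change of *Ccl7* ran from 1.38 to 4.78 and that of *Cxcl10* from 1.13 to 2.90, against 2.03 to 2.66 for *Cxcl5*.

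**Figure D5:**
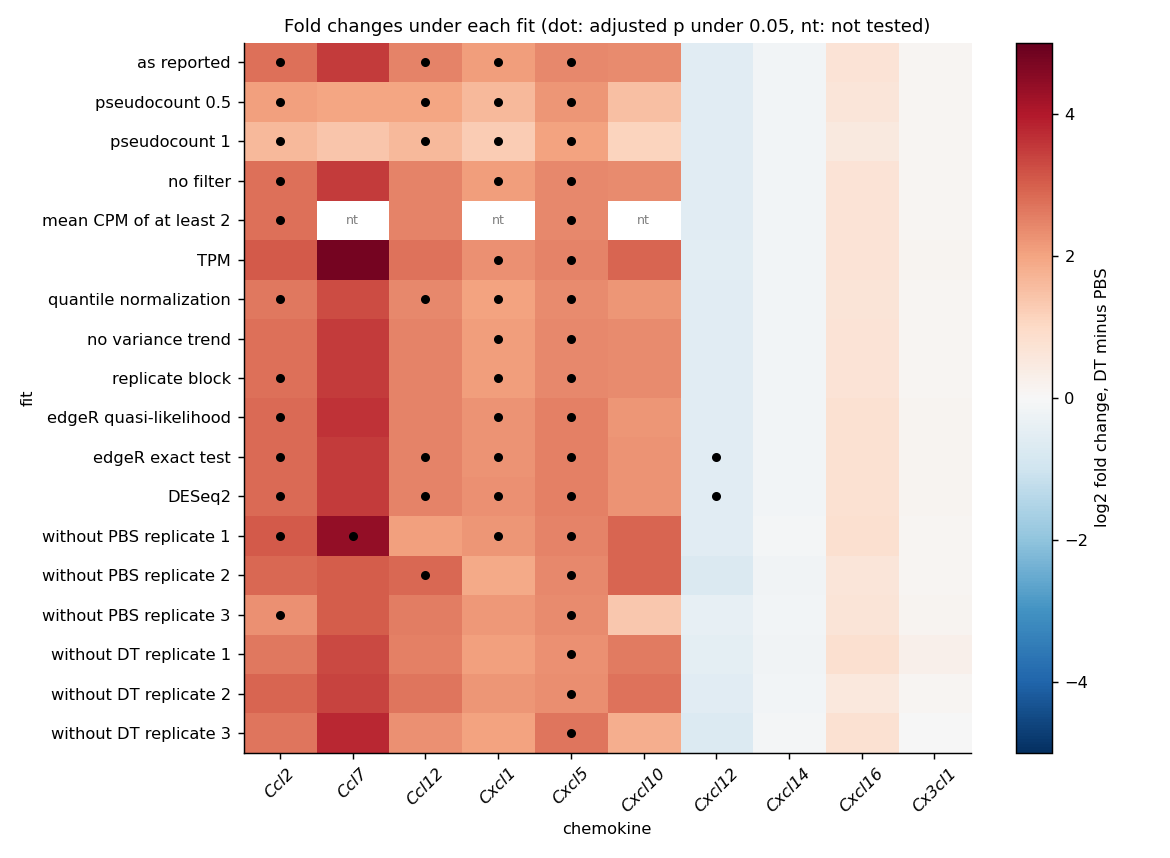
Log2 fold change (DT minus PBS) of each chemokine in the reported fit and 17 alternatives, as a colour from blue (lower) to red (higher), with a dot for an adjusted p under 0.05 and nt for genes not tested. The *Cxcl5* column holds a dot in every fit, and the *Cxcl12* column holds a dot in the edgeR exact test and DESeq2.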

How the data were processed

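RNA of ACSA-2-captured hippocampal astrocytes was sequenced in 3 PBS and 3 DT libraries. According to the methods and processing notes, the authors trimmed reads with Trim Galore 0.5.0, checked them with FastQC 0.11.8, mapped them to mm10 with HISAT2 2.1.0, removed ribosomal reads with bedtools 2.25.0, quantified genes with StringTie 1.3.5 and compared groups with edgeR 3.24.3 in R 3.5.1. In the deposited signal the authors had divided reads by TMM-adjusted library sizes, where plain CPM had been assumed in the design. The deposited TPM values were used for levels between genes. The 3 deposited comparison columns (p-value, q-value and log2 fold change) hold the authors' own test and were not used. Spreadsheet software had changed 27 gene names to dates.

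Values of 1 read recovered whole reads for 100% of entries (within 0.1). No pair of libraries agreed within sampling noise. Genes averaging 0.5 CPM or more were tested with limma 3.58.1 (moderated test with a variance trend, Benjamini-Hochberg adjustment over all genes tested) in R 4.3.3, on log2(CPM + 0.1), so fold changes of low genes depend on the pseudocount. The steps were tested on simulated reads with the same dispersion for every gene, which the real genes need not share. Alternatives were pseudocounts, filters, TPM, quantile normalization, no trend, the replicate number as a block, edgeR 4.0.16 and DESeq2 1.42.0 on recovered reads, and leaving out each library. Libraries are pools from separate experiments, so p-values measure the spread between pools. Same-numbered PBS and DT libraries correlated at 0.115, 0.0105 and 0.118 in their deviations, and differently numbered ones at -0.124 to 0.0115. Deviations from means of 3 libraries cannot decide whether the numbers mark pairs. The reported fit did not take them as pairs, and a block is given as an alternative.

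The members and the 6 pathway and 13 marker lists were chosen with earlier results of these data known. Named were all members, the called genes and the 3 with the highest TPM of each pathway list, chemokine genes beside a member, and genes behind counts of 5 or fewer. A result that rested on a withheld item is not reported here. *Aqp4* was named after its values were seen. Lymphocyte, pericyte, fibroblast, neuron, oligodendrocyte and precursor markers had sums of 0.169 to 0.924, 937 to 1534, 159 to 226, 779 to 1226, 424 to 627 and 250 to 332 TPM over the 6 libraries.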

Additional observations from a re-analysis of the deposited data

How the results depend on the processing

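The members called higher, 4 in the reported fit, numbered 2 with a minimum mean of 2 CPM (which left 3 members untested), with TPM and without the variance trend, and 1 to 4 when a library was left out. The fit with 4 was that without PBS replicate 1, which called *Ccl7* and not *Ccl12*. *Cxcl12* was the 1 member called lower by the edgeR exact test and by DESeq2. Over all genes, 35 were higher and 11 lower without the trend, 185 and 73 by the edgeR exact test, 227 and 98 by DESeq2, and 39 to 72 higher and 9 to 20 lower with a library left out. Interferon response genes called higher were 2 with TPM, the edgeR exact test or DESeq2, 0 without the trend, and 0 to 1 with a library left out. Induction genes called higher were 2 without the trend, processing genes called higher were 0 at a minimum of 2 CPM because *Timp1* was then untested, and the edgeR exact test called 1 other chemokine higher (*Cxcl2*) and 2 receptors lower, among them *Cx3cr1*. The cause of the other shifts was not tested. *Ackr3*, at -0.001 in log2 fold change, turned to 0.00791 with TPM, 0.0142 and 0.0140 with the edgeR quasi-likelihood and exact tests, 0.0157 with DESeq2 and lay from -0.179 to 0.130 with a library left out. Log2 fold changes that also spanned 0 with a library left out were those of *Fos* (-0.0661 to 0.265), *Ifi27* (-0.0193 to 0.148), *Il6st* (-0.00675 to 0.11), *Jun* (-0.227 to 0.0620), *Cx3cl1* (-0.0268 to 0.266) and *Ifit3* (-0.0139 to 0.368). Whether the replicate numbers pair the libraries was not settled, and a fit with the replicate block called 79 genes higher and 30 lower. Of the members it called 3 higher and 0 lower, and only *Ccl12* lost its call. The block lowered the limma adjusted p of *Cxcl12* to 0.057 and that of *Ccl7* to 0.0621, neither of them called. Depth limits *Ccl2*, *Ccl7*, *Ccl12*, *Cxcl1* and *Cxcl10*, whose PBS libraries held 0 to 41 reads each.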
